A study of Mus musculus with 8 samples.

Results

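Potassium channel transcripts were described in 8 RNA sequencing libraries of N134, a line of mouse tumor cells of pancreatic beta cell origin. Members were all genes of the deposited table whose symbol starts with Kcn and goes on with a lower-case letter, except Kcnj11, Kcnq1, Kcnq1ot1 and Kcnk9, which were left out by rule. This gave 91 of the 23309 genes in the table. The rule itself used names only, but members were chosen with earlier results of these data known. In 4 libraries (numbered 5 to 8) the cells overexpressed GFP-miR-431, that is microRNA-431 with a green fluorescent protein marker. In the other 4 (numbered 1 to 4) they overexpressed GFP-miR-LacZ, a control construct of the same format, and these are called controls below. All 8 libraries came from the same line, of C57BL/6 strain, growing in culture with serum. The labels leave unsaid whether the cells carrying a construct were a pool or a clone, and whether each library had its own culture. The p-values below therefore measure library-to-library spread, which may be technical. The question is which potassium channel transcripts stand higher or lower once miR-431 is overexpressed.

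Potassium channels let potassium leave the cell and so hold or restore a negative membrane potential. In beta cells, closure of the ATP-sensitive channel depolarizes the membrane, calcium enters and insulin is released, after which voltage-gated and calcium-activated potassium channels repolarize the cell, and background channels of the tandem-pore family set how easily it fires. The pore is built of alpha subunits, which belong to voltage-gated, inward rectifier, tandem-pore and calcium- or sodium-activated families. Auxiliary subunits (Kcnab, Kcne, Kcnip and Kcnmb genes) form no pore and tune the gating or surface level of alpha subunits.

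The overexpressed microRNA and its matches in these genes are shown first, since the construct is what distinguishes the groups. The mature mouse strand miR-431-5p (RefSeq, GRCm38.p6, chr12:109590459-109590479, plus strand) is 21 bases long, and capitals mark its seed, bases 2 to 8.
miR-431-5p: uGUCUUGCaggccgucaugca
The 7-base match of the seed, GCAAGAC, and the 8-base match, GCAAGACA, were searched on the transcript strand of the longest annotated 3′ UTR of each gene (GENCODE M21, GRCm38, used for sequence only). The 8-base match contains the 7-base match, and a gene with either was counted once. Of the 91 members, 10 (11%) held a match, and of the 25 members tested below, 3 (12%) did. Among all tested genes with an annotated 3′ UTR, the share was 6.9% (787 of 11333), and their median 3′ UTR was 1203 bases long, against 1843 bases for the tested members. The sites of 2 of the tested members, 1 that rose and 1 that did not pass, and of a member with an 8-base match follow, 30 bases each, with the match in capitals.
Kcnab2: gcagcaggcttGCAAGACcatattgctctc
Kcnj12: ttttaacttggGCAAGACtgtttacaaaca
Kcna2: ctctggagtttGCAAGACAtctgctttcct
A match is a description of the sequence and not a site shown to be used.

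Levels are FPKM, fragments normalised for transcript length and sequencing depth, so levels of different genes can be compared. Summed FPKM per library ran from 521889 to 625005, and 11603 to 11790 genes per library reached 1 FPKM. Read counts are not given, so the depth behind a value is not known. Dab2ip, the RasGAP gene that the title of the series names as a target, stood at 54.5 ± 7.74 FPKM in miR-431 cells and 73.3 ± 7.76 FPKM in controls (SD, n = 4 each), and the Mir431 row read 18114 to 37769 FPKM in miR-431 libraries and 0 in each miR-LacZ library. Of the markers listed for the labelled cell type, 9 of 9 beta cell genes and 5 of 5 neuroendocrine genes reached 1 FPKM in at least 4 libraries, while 1 of 5 acinar, 0 of 4 duct, 1 of 5 fibroblast, 0 of 4 endothelial, 1 of 4 leukocyte and 2 of 6 neuron and glia genes did. The levels of these markers moved with the groups too. Of the 9 beta cell genes, 1 was higher and 3 were lower in miR-431 cells. Ins1, an insulin gene, was at 389 ± 126 FPKM in miR-431 cells and 3332 ± 1405 FPKM in controls (log2 fold change −3.07, limma adjusted p = 0.000148). Ins2, the more abundant insulin gene, was at 16593 ± 4937 and 21988 ± 4820 FPKM in the same order and did not pass (−0.43, limma adjusted p = 0.344). Of the 5 neuroendocrine genes, 2 were higher and 1 lower. Among all genes tested below, 15.4% were higher and 13.8% lower. Summed acinar markers ran from 0.0838 to 0.402 FPKM in miR-431 libraries and from 1.10 to 3.07 FPKM in miR-LacZ libraries, nearly all of it Cela1, with the other 4 genes averaging below 0.05 FPKM in either group. Summed fibroblast markers ran from 0.715 to 1.06 FPKM in miR-431 libraries and from 1.92 to 3.20 FPKM in miR-LacZ libraries, a gap made mostly by Pdgfra (0.323 and 1.84 FPKM in miR-431 and control means). In the same order, Col1a1 averaged 0.250 and 0.424 FPKM and Col1a2 0.212 and 0.187 FPKM. Pdgfrb and Dcn averaged below 0.05 FPKM in either group. The part of any of these markers in the results below was not tested. At values below 0.1 FPKM, libraries miR-431 5 and miR-LacZ 1 follow another pattern than the other 6, so results are also given without this pair.

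Most potassium channel genes were below 1 FPKM. Of the 91 members, 32 reached 1 FPKM in at least 1 library, 25 in at least 4 libraries and 20 in all 8, while 59 stayed below 1 FPKM throughout and 3 (Kcna10, Kcnk15 and Kcnk18) were listed at 0 in every library. The 25 members at 1 FPKM in at least 4 libraries were tested. They are 9 of 39 voltage-gated alpha genes, 3 of 13 tandem-pore genes, 2 of 14 inward rectifier genes, 4 of 8 calcium- or sodium-activated genes and 7 of 17 auxiliary genes. Roles were assigned by gene name alone, with no check of function. By this rule Kcnu1 was counted as calcium- or sodium-activated and Kcnrg as auxiliary. The order at the top was the same in both groups: Kcnk16 at 96.6 FPKM in miR-431 cells and 206 FPKM in controls, then Kcnh6 and Kcnip3. Further down, Kcnf1 ranked 16 in miR-431 and 5 in miR-LacZ cells, and Kcnh2 ranked 5 and 8. In such bulk samples, fewer cells of a type and less RNA per cell cannot be told apart.

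**Figure D1:**
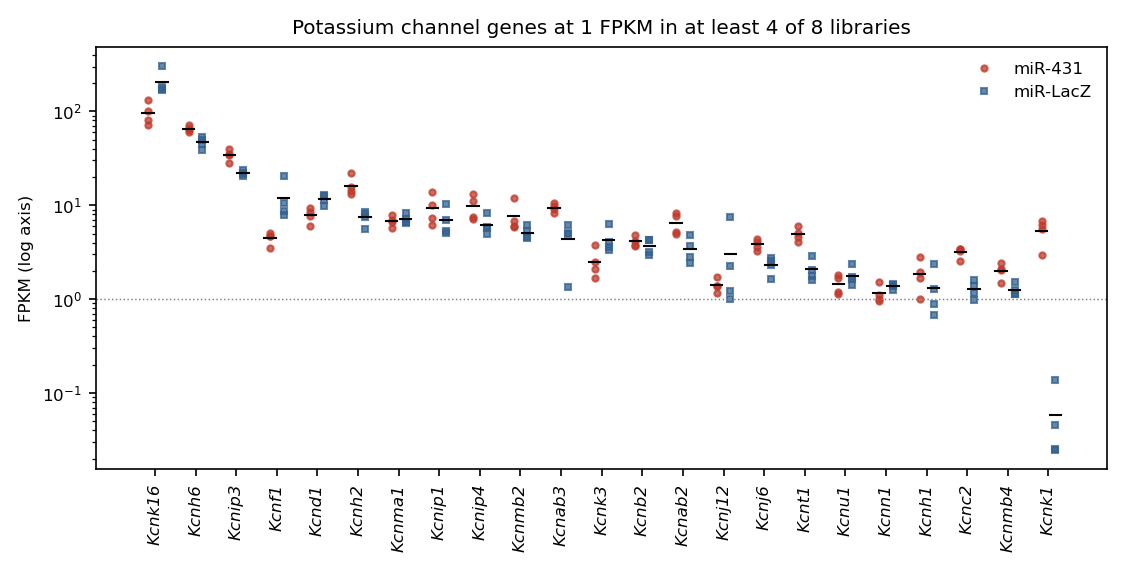
Level of the tested potassium channel genes that are reported here, in FPKM (log axis) in the 4 miR-431 (red circles) and 4 miR-LacZ (blue squares) libraries, ordered by the miR-LacZ mean; black bars are group means and the dotted line is 1 FPKM. Kcnk16 is highest in both groups, and Kcnk1 is the only gene whose groups lie on opposite sides of 1 FPKM.

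Potassium channel genes moved in both directions. Of the 25 tested members, 10 rose and 4 fell in miR-431 cells, and 11 did not pass. The test was limma's, a linear model that shares its estimate of the spread across genes, on log2(FPKM + 1) over 11807 genes, with a threshold of 0.05 on the p-value adjusted over all of them. Of all tested genes, 29.3% passed it (15.4% higher and 13.8% lower), against 56% of the tested members. Kcnk1 reached 1 FPKM in miR-431 libraries only, so it could enter the test only because it is high there. Without it, 9 of 24 members rose and 4 fell (54.2% in all), the groups did not overlap for 11 (45.8%), and 4 passed with at least 2-fold change. The groups did not overlap for 12 tested members (9 with miR-431 above and 3 with miR-431 below), or 48% of the 25, where 31.1% of all tested genes had groups that do not overlap (16% with miR-431 above and 15.1% below). Past the threshold and changed at least 2-fold on this scale were 5 members, or 20% of the 25, and 3.97% of all tested genes. The median log2 fold change was 0.38 for the tested members and −0.01 for all tested genes, and the median size of the fold change was 0.52 against 0.22. Without miR-431 5 and miR-LacZ 1, 9 members rose and 2 fell, where 13.1% of all tested genes were higher and 11.2% lower. In that fit Kcnab2, Kcnmb4, Kcnd1 and Kcnk3 no longer passed, and Kcnip4 did. Within the pair of miR-431 5 and miR-LacZ 1, which allows no test, the difference had the same sign as in the whole fit for 14 of the 14 members that passed. Both libraries were part of that fit, and for 12 of the 14 the groups do not overlap, which fixes the sign in advance. The count is therefore no separate support.

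**Figure D2:**
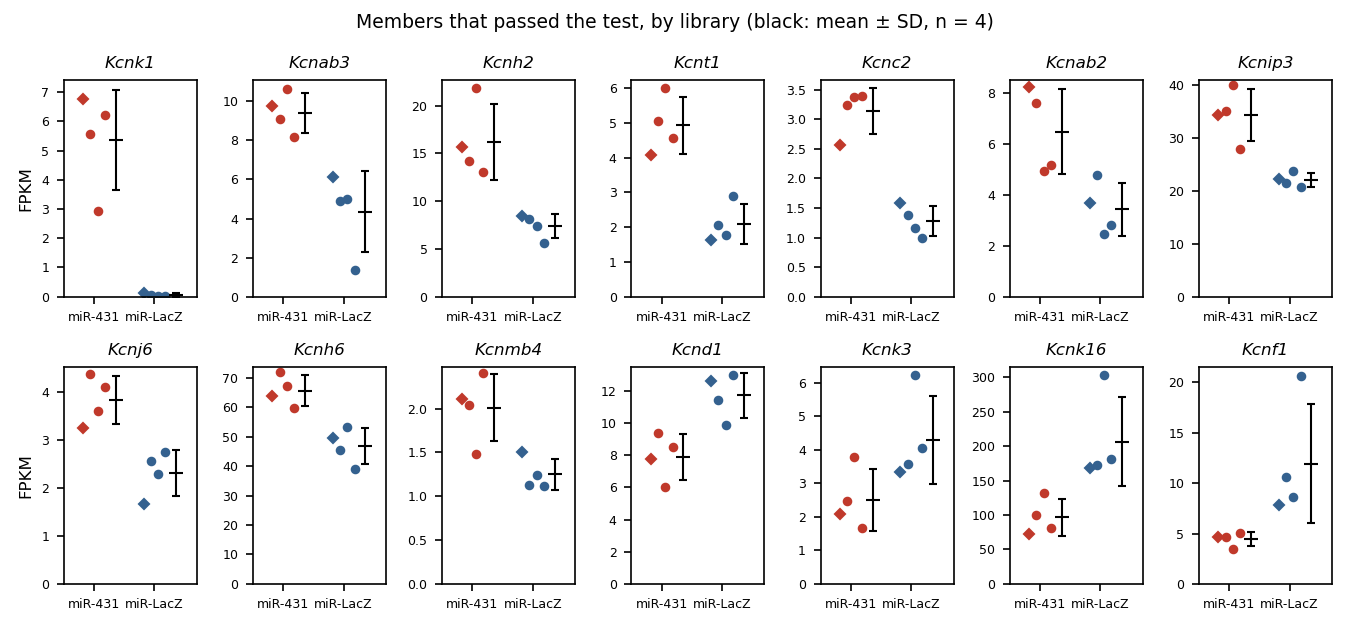
FPKM per library of the 14 members that passed the test, ordered by fold change, with miR-431 libraries (red) left and miR-LacZ libraries (blue) right in each panel; diamonds are libraries miR-431 5 and miR-LacZ 1, and black marks are mean ± SD (n = 4). Only for Kcnmb4 and Kcnk3 do the values of the groups overlap.

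Among voltage-gated alpha genes, 3 rose and 2 fell of the 9 tested, where 15.4% of all tested genes rose and 13.8% fell. Kcnh2 and Kcnh6 encode ether-a-go-go related channels, which carry a repolarizing current; Kcnh2 is best known from the heart. Kcnh2 (chromosome 5, 23825406 to 23857422, mm9) had 15.7, 14.2, 21.9 and 13.0 FPKM in miR-431 libraries 5 to 8, against 8.47, 8.08, 7.43 and 5.64 FPKM in miR-LacZ libraries 1 to 4. Every miR-431 library lay above every miR-LacZ library, and the log2 fold change came to 1.02 (SE 0.163, limma adjusted p = 0.00152). Kcnh6 (chromosome 11, 105869516 to 105895378) had 63.6, 71.9, 67.2 and 59.6 FPKM in miR-431 and 49.5, 45.5, 53.3 and 39.0 FPKM in miR-LacZ libraries. The rise was smaller than that of Kcnh2 (0.48, SE 0.109, limma adjusted p = 0.00894; the difference between the genes was not tested) and the groups were again apart. Kcnc2, a fast delayed rectifier of rapidly firing neurons, lies on chromosome 10 (111708178 to 111903360). It had 2.56, 3.24, 3.38 and 3.39 FPKM in miR-431 and 1.58, 1.39, 1.16 and 0.990 FPKM in miR-LacZ libraries. Its log2 fold change came to 0.86 (SE 0.115, limma adjusted p = 0.000554), with no overlap, although the pair of miR-431 5 and miR-LacZ 1 differed by only 0.46.

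The voltage-gated genes that fell were Kcnf1 and Kcnd1. Kcnf1 encodes a silent subunit that forms no channel alone and modifies channels of the Kcnb family. Kcnf1 (chromosome 12, 17178905 to 17183694) had 4.69, 4.71, 3.48 and 5.08 FPKM in miR-431 libraries, against 7.87, 10.6, 8.62 and 20.6 FPKM in miR-LacZ libraries. Library miR-LacZ 4 was the highest by far, and without it the fall remained past the threshold (log2 fold change −0.87, limma adjusted p = 0.00182), against −1.15 (SE 0.247, limma adjusted p = 0.00718) with all 8 libraries. Kcnb2, a delayed rectifier of that family, did not pass and was at 4.12 ± 0.542 and 3.68 ± 0.720 FPKM in miR-431 and miR-LacZ cells (0.14, 95% interval −0.15 to 0.42). Kcnd1, an alpha subunit of rapidly inactivating A-type channels on chromosome X (7400968 to 7413629), had 7.73, 9.36, 6.01 and 8.49 FPKM in miR-431 and 12.6, 11.4, 9.85 and 13.0 FPKM in miR-LacZ libraries. The groups did not overlap and the log2 fold change came to −0.52 (SE 0.132, limma adjusted p = 0.0152), but it did not pass without miR-431 5 and miR-LacZ 1 (−0.48, limma adjusted p = 0.0717). Kcnh1, an ether-a-go-go channel, was at 1.86 ± 0.747 and 1.31 ± 0.757 FPKM in miR-431 and miR-LacZ cells, with a spread within groups larger than the difference between them.

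All 3 tested tandem-pore genes passed, in opposite directions, where 29.3% of all tested genes passed. Of these 3, Kcnk1 could enter the test only because it is high in miR-431 cells. Kcnk16, a background channel found mainly in the pancreas, supplied 88.4% to 94.9% of summed tandem-pore FPKM in miR-431 and 96.9% to 97.6% in miR-LacZ libraries. Kcnk16 (chromosome 14, 21081977 to 21088384) had 72.2, 101, 132 and 80.9 FPKM in miR-431 libraries, against 169, 173, 303 and 181 FPKM in miR-LacZ libraries. Its mean in miR-431 cells was 46.8% of that in miR-LacZ cells, the groups did not overlap, and the log2 fold change came to −1.08 (SE 0.226, limma adjusted p = 0.00616). Kcnk3, an acid-sensitive background channel (chromosome 5, 30876359 to 30927643), had 2.08, 2.47, 3.79 and 1.67 FPKM in miR-431 and 3.35, 3.57, 6.24 and 4.05 FPKM in miR-LacZ libraries. As with Kcnk16, the highest library of each group was miR-431 7 and miR-LacZ 3, and for Kcnk3 the groups overlapped through miR-431 7. Its fall passed narrowly (−0.60, SE 0.204, limma adjusted p = 0.0490) and was lost when any of miR-431 5, 6 or 8 or miR-LacZ 2, 3 or 4 was left out, with log2 fold changes in that order of −0.55, −0.61, −0.48, −0.66, −0.44 and −0.62, where the limma adjusted p was 0.106, 0.0935, 0.124, 0.0660, 0.110 and 0.0739. The Kcnk3 locus also holds Gm9899 in the table. Strand is not stated to have been used in counting, so these genes may share reads where they overlap.

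Kcnk1, a weakly conducting background channel, had the largest fold change of the tested members. It had 6.76, 5.56, 2.93 and 6.22 FPKM in miR-431 libraries, against 0.139, 0.0455, 0.0250 and 0.0246 FPKM in miR-LacZ libraries. It was thus near 0 in every control library and at several FPKM in every miR-431 library, with miR-431 7 the lowest. The log2 fold change came to 2.54 (SE 0.192, limma adjusted p = 1.96e-05; 0.000214 in a fit with no level filter, which the choice by level does not touch), and 5.10 with a pseudocount of 0.1 instead of 1, since the control values are so low. Kcnk1 lies on distal chromosome 8 (128519001 to 128554585). A running median along the chromosome was taken per library, of deviations from each gene's mean, over up to 31 genes with Kcnk1 included. On the log2 scale it was higher by 0.45 in miR-431 libraries at Kcnk1. With this running median removed, the log2 fold change of Kcnk1 was 2.096 (limma adjusted p = 0.000123).

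The 2 tested inward rectifier genes are Kcnj6 and Kcnj12. Kcnj6 encodes a channel opened by G protein-coupled receptors. Kcnj6 (chromosome 16, 94970289 to 95219303) had 3.24, 4.38, 3.61 and 4.10 FPKM in miR-431 and 1.66, 2.57, 2.29 and 2.74 FPKM in miR-LacZ libraries. It rose without overlap of the groups (0.55, SE 0.128, limma adjusted p = 0.0106). Kcnj12, a strong inward rectifier, averaged 1.41 ± 0.240 FPKM in miR-431 cells and 2.99 ± 3.07 FPKM in controls. That mean rests on miR-LacZ 4 at 7.53 FPKM, where the other 3 controls had 0.991, 1.22 and 2.23 FPKM, and the log2 fold change was −0.46 with all libraries (limma adjusted p = 0.385) and −0.01 without miR-LacZ 4 (limma adjusted p = 0.966).

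Of the 4 tested calcium- or sodium-activated genes, 1 rose (25%) and 3 did not pass, where 29.3% of all tested genes passed. Kcnt1, a channel opened by intracellular sodium (chromosome 2, 25719373 to 25773793), had 4.08, 5.05, 6.00 and 4.55 FPKM in miR-431 and 1.61, 2.06, 1.77 and 2.89 FPKM in miR-LacZ libraries. The lowest miR-431 library lay above the highest miR-LacZ library, and the log2 fold change came to 0.95 (SE 0.145, limma adjusted p = 0.00117). Kcnma1, the pore of the large-conductance calcium-activated channel, was at 6.83 ± 0.878 FPKM in miR-431 cells and 7.14 ± 0.781 FPKM in controls (−0.06, 95% interval −0.30 to 0.18). Kcnn1, a small-conductance calcium-activated channel, was at 1.15 ± 0.260 FPKM in miR-431 cells and 1.37 ± 0.0825 FPKM in controls (−0.15, 95% interval −0.38 to 0.09). Kcnu1, known as a sperm channel, was at 1.45 ± 0.341 FPKM in miR-431 cells and 1.78 ± 0.408 FPKM in controls (−0.18, 95% interval −0.49 to 0.12).

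Of the 7 tested auxiliary genes, 4 rose and 0 fell, where 15.4% of all tested genes rose and 13.8% fell. The other 3 auxiliary genes did not pass, with positive fold changes. Kcnip3, a calcium-binding protein that modulates A-type channels and also acts as a transcriptional repressor, was the most abundant of them. Kcnip3 (chromosome 2, 127282233 to 127347106) had 34.4, 35.2, 40.1 and 28.0 FPKM in miR-431 and 22.2, 21.6, 23.7 and 20.7 FPKM in miR-LacZ libraries. The controls lay close together, all miR-431 libraries were above them, and the log2 fold change came to 0.61 (SE 0.108, limma adjusted p = 0.00264). Kcnab2 and Kcnab3 encode cytoplasmic beta subunits of the Kcna family. Kcnab2 (chromosome 4, 151764848 to 151851658) had 8.21, 7.62, 4.92 and 5.18 FPKM in miR-431 and 3.69, 4.76, 2.45 and 2.81 FPKM in miR-LacZ libraries. Libraries miR-431 7 and 8 were only just above miR-LacZ 2, and the rise of 0.76 (SE 0.193, limma adjusted p = 0.0158) did not pass without miR-431 5 and miR-LacZ 1 (0.69, limma adjusted p = 0.0627). Kcnab3 (chromosome 11, 69139759 to 69146543) had 9.74, 9.09, 10.6 and 8.18 FPKM in miR-431 and 6.11, 4.89, 5.01 and 1.35 FPKM in miR-LacZ libraries. Library miR-LacZ 4 was low, and the log2 fold change came to 1.07 (SE 0.293, limma adjusted p = 0.0214) with it and 0.72 without it (limma adjusted p = 0.00193); without miR-431 7 the rise no longer passed (1.02, limma adjusted p = 0.0519).

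The fourth auxiliary gene to rise was Kcnmb4, a beta subunit of the large-conductance channel whose pore is Kcnma1. Kcnmb4 (chromosome 10, 115854923 to 115910579, a locus shared with 1700058G18Rik) had 2.11, 2.04, 1.49 and 2.41 FPKM in miR-431 and 1.51, 1.13, 1.24 and 1.12 FPKM in miR-LacZ libraries. The groups overlapped through miR-431 7 and miR-LacZ 1. The rise of 0.41 (SE 0.117, limma adjusted p = 0.0250; 0.63 with a pseudocount of 0.1) was lost when miR-431 5, 6 or 8 or miR-LacZ 2 or 3 was left out, with log2 fold changes in that order of 0.40, 0.41, 0.35, 0.39 and 0.41, where the limma adjusted p was 0.0585, 0.0642, 0.0735, 0.0684 and 0.0504. Kcnmb2, another beta subunit of that channel, averaged 7.65 ± 2.89 FPKM in miR-431 cells and 5.12 ± 0.814 FPKM in controls (0.46, limma adjusted p = 0.104). Kcnip4 and Kcnip1 belong to the Kcnip3 family. Kcnip4, which shares its locus with 5730480H06Rik, was at 9.77 ± 2.92 FPKM in miR-431 cells and 6.21 ± 1.48 FPKM in controls (0.56, limma adjusted p = 0.0569) and passed without miR-431 5 and miR-LacZ 1 (0.54, limma adjusted p = 0.0455) or when miR-431 8 or miR-LacZ 1 alone was left out (0.68 and 0.69, limma adjusted p = 0.0403 and 0.0265). Kcnip1, which shares its locus with Kcnmb1, was at 9.33 ± 3.34 FPKM in miR-431 cells and 6.92 ± 2.42 FPKM in controls (0.38, limma adjusted p = 0.278).

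**Figure D3:**
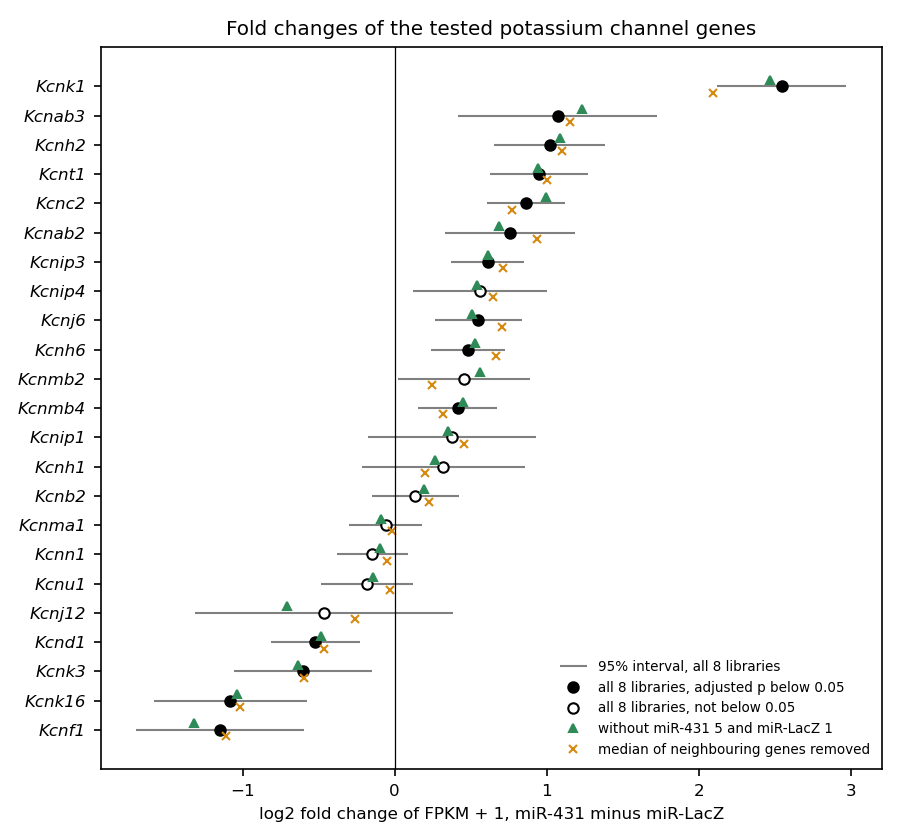
Log2 fold change of FPKM + 1 (miR-431 minus miR-LacZ) of the tested members reported here, with its 95% interval; filled circles passed an adjusted p of 0.05. Triangles leave out miR-431 5 and miR-LacZ 1, and crosses remove the running median of neighbouring genes; no member changes sign between these fits, and Kcnk1 stands apart at 2.54.

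Summed over all members of a role, tested or not, levels differed between the groups in opposite directions. Voltage-gated alpha genes summed to 145 ± 5.94 FPKM in miR-431 cells and 119 ± 3.40 FPKM in controls (SD, n = 4 each), and auxiliary genes to 80.0 ± 12.5 and 50.1 ± 5.82 FPKM in the same order. For both roles the lowest miR-431 library was above the highest miR-LacZ library. Tandem-pore genes summed to 105 ± 25.8 FPKM in miR-431 cells and 212 ± 65.7 FPKM in controls, also without overlap, which is nearly all Kcnk16. Calcium- or sodium-activated genes (16.0 ± 1.20 and 13.9 ± 1.86 FPKM) and inward rectifier genes (6.74 ± 0.428 and 6.06 ± 3.57 FPKM) overlapped between miR-431 and miR-LacZ libraries. The sum of all 91 members was 353 ± 39.0 FPKM in miR-431 cells and 401 ± 69.0 FPKM in controls, a difference within the spread of the controls. Kcnk16 made up 21.7% to 32.7% of it in miR-431 libraries and 46.4% to 60.1% in miR-LacZ libraries.

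**Figure D4:**
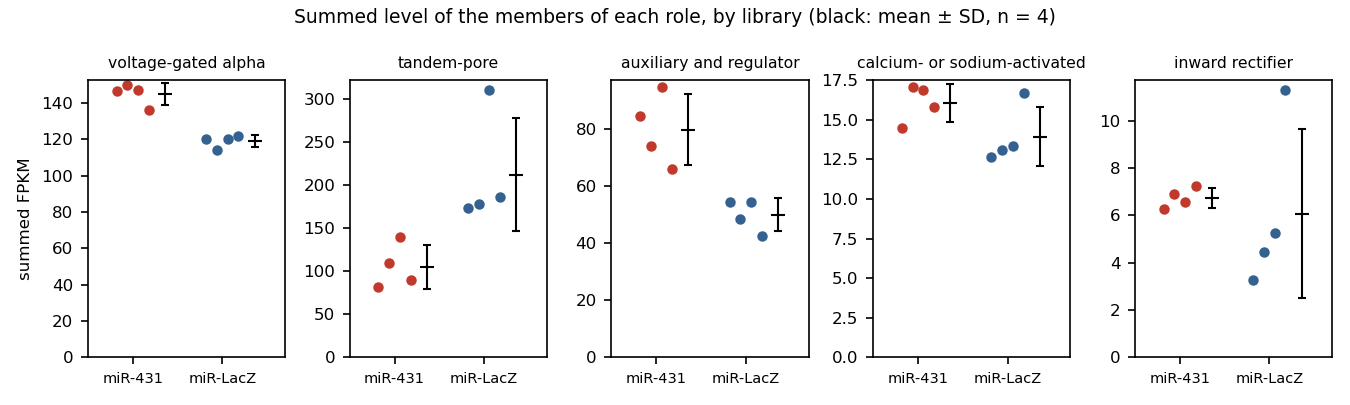
Summed FPKM of all members of each role in the miR-431 (red, left) and miR-LacZ (blue, right) libraries, with mean ± SD in black (n = 4); each panel has its own axis from 0. Voltage-gated alpha and auxiliary sums lie higher in every miR-431 library and tandem-pore sums lower, while the other roles overlap.

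The other 66 members were below the level tested, 63 of them above 0 in at least 1 library. In a fit with no level filter, 13 of these 63 were higher and 5 lower in miR-431 cells, where 7% and 6.45% of the 7096 genes below the level but above 0 in some library were. The libraries of the groups were apart for 13 of them with miR-431 above and 6 with miR-431 below, against 7.99% and 8.31% of the same 7096 genes. Tested and untested together, 22 of the 88 members above 0 in some library were higher and 8 lower in that fit, against 11% and 9.99% of all such genes. Kcna5, a delayed rectifier, had 0.637, 0.914, 1.05 and 0.789 FPKM in miR-431 libraries, against 0.0311 and 0.0171 FPKM in miR-LacZ 1 and 2 and a listed 0 in miR-LacZ 3 and 4. It was the most widely separated of the low members (log2 fold change 0.86, limma adjusted p = 0.000149 with no filter). Other voltage-gated genes that passed upward included Kcnh5 (0.989 ± 0.153 FPKM in miR-431 cells and 0.448 ± 0.212 FPKM in controls), Kcnh3, Kcns3, Kcna4 and the M-current subunit Kcnq3 (0.251 ± 0.0426 FPKM in miR-431 cells and 0.0769 ± 0.0445 FPKM in controls). Kcnh3 shares its locus with Mcrs1 and 1700120C14Rik, so these genes may share reads where they overlap. Kcnh4 (0.484 ± 0.117 FPKM in miR-431 cells and 1.04 ± 0.127 FPKM in controls) passed downward. Of the inward rectifiers, Kcnj2, Kcnj3, Kcnj4, Kcnj8 and Kcnj10 passed upward and Kcnj14 downward. Kcnj10, known from glia, was at 0.226 ± 0.0551 FPKM in miR-431 cells and 0.0316 ± 0.0229 FPKM in controls, while the glial genes Gfap and Sox10 were at or near 0 in both groups. Kcnn3 passed upward, and the tandem-pore genes Kcnk12 and Kcnk2 downward (0.130 ± 0.0537 FPKM for Kcnk2 in miR-431 cells and 0.527 ± 0.295 FPKM in controls). Of the low members that reached 1 FPKM in some library, Kcnc4, Kcnd2 and Kcnt2 did not pass: Kcnc4 had 1.33 FPKM in miR-431 5 but 0.290 to 0.503 FPKM in the other miR-431 libraries. At such levels a few fragments decide a value.

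**Figure D5:**
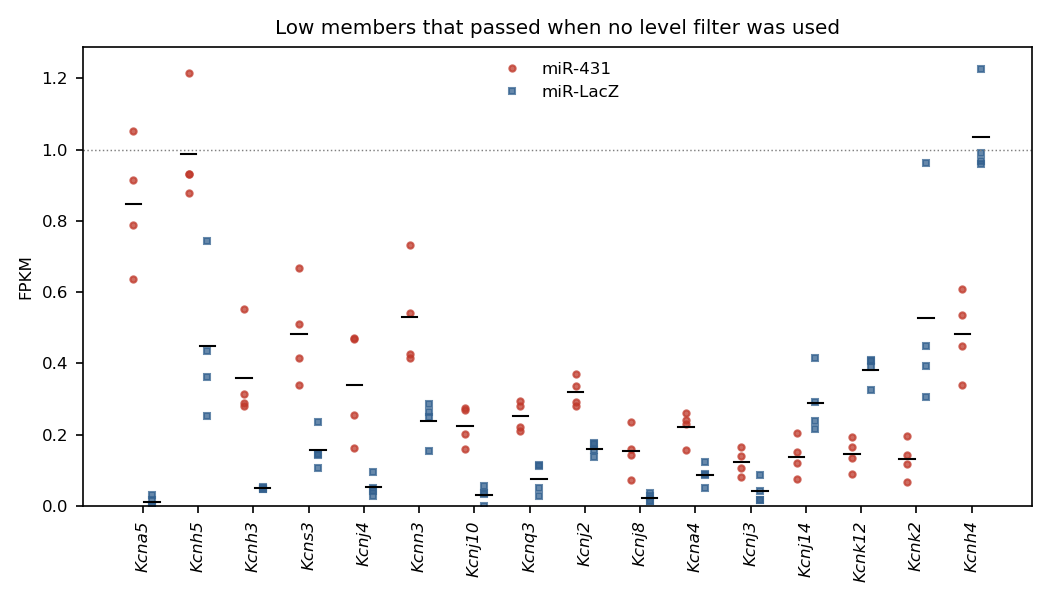
FPKM of members below the tested level that passed in the fit with no level filter and are reported here, in miR-431 (red circles) and miR-LacZ (blue squares) libraries, ordered by fold change; black bars are means and the dotted line is 1 FPKM. Kcna5, at the left, is farthest above its controls, and the genes from Kcnj14 to the right end are lower in miR-431 cells.

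A seed match was held by 3 of 25 tested members (12%), against 6.9% of all tested genes with an annotated 3′ UTR. Of the 3 tested members with a match, Kcnab2 rose and the others, Kcnj12 among them, did not pass. None of the 4 members that fell (Kcnf1, Kcnk16, Kcnk3 and Kcnd1) holds the 7-base match in the annotated 3′ UTR. With matches this rare among all tested genes, 4 genes are too few for a conclusion. Kcna2, with its 8-base match, was below the level tested, at 0.234 ± 0.0563 FPKM in miR-431 cells and 0.352 ± 0.0699 FPKM in controls. Over all tested genes, the median log2 fold change was 0.01 for those with a match and −0.01 for those without.

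Genes that work with potassium channels under other names were read from 3 lists, and those that passed were all higher in miR-431 cells. Of 12 tested partner genes, 3 rose and 0 fell, against 15.4% and 13.8% of all tested genes. Dpp10, an auxiliary subunit of A-type channels, was at 20.3 ± 2.46 FPKM in miR-431 cells and 7.51 ± 3.71 FPKM in controls (log2 fold change 1.48, limma adjusted p = 0.0126), while its relative Dpp6 was at 14.3 ± 1.03 and 12.4 ± 1.75 FPKM (0.19, limma adjusted p = 0.199). On the log2 scale Nedd4l, a ubiquitin ligase of membrane proteins, rose by 0.60 and Amigo1, a partner of delayed rectifier channels, by 0.40. Abcc8, the sulfonylurea receptor of the ATP-sensitive channel, was at 140.1 ± 32.4 FPKM in miR-431 cells and 151 ± 6.82 FPKM in controls (−0.13, limma adjusted p = 0.558). Of 7 tested cyclic nucleotide-gated and depolarizing cation channel genes, 3 rose and 0 fell, among them the sodium leak channel gene Nalcn by 0.71 and the pacemaker channel gene Hcn4 by 0.51. Of 12 tested genes of the sodium-potassium pump and potassium-coupled transporters, 6 rose and 0 fell. Fxyd6, a pump regulator, was at 274 ± 29.8 FPKM in miR-431 cells and 79.6 ± 32.6 FPKM in controls (1.90, limma adjusted p = 0.00206), and the pump subunit genes Atp1b3 and Atp1b2 rose by 0.65 and 0.64 and the potassium-chloride cotransporter gene Slc12a4 by 0.35.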

How the data were processed

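Libraries were grouped by their titles. The authors deposited 1 value per gene and library, with loci in mm9. The header names no unit, and the deposited values were read as FPKM, made by the authors, since FPKM is the output unit of Cufflinks. Per the submitters' processing notes, which give no role or order, tools were Cufflinks 2.1.1, TopHat2 2.0.11, CASAVA 1.8.2 and cutadapt. The 75th percentile of FPKM was 14.5 to 14.7 in every library, which a scaling step would give; none is stated. Strand use is not stated, so overlapping genes can share reads. Depth is not given, and FPKM allows no count test.

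The 11807 genes that reached 1 FPKM in 4 or more libraries entered limma 3.58.1 (R 4.3.3; mean-variance trend, no covariate) on log2(FPKM + 1), a scale that understates folds of low genes. Calls used a Benjamini-Hochberg adjusted p below 0.05, and intervals are limma's. The fit was checked on simulated data. Tested members are named and, where they passed, given by library; some members and listed genes are counted but not reported here. Members and lists were chosen with earlier results of these data known, and members that never reached 1 FPKM were named after their values were seen. Other settings changed the pseudocount, filter, scaling, trend, libraries and a term for miR-431 5 with miR-LacZ 1. A further setting removed the running median of up to 31 neighbouring genes, the gene itself included. No 2 libraries held near-identical values. Tables and figures used Python 3.11.15, pandas 2.3.3 and matplotlib 3.10.9. Protein sequences were not used here.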

Additional observations from a re-analysis of the deposited data

Results flagged for a closer look

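A library that stood far from the other 3 of its group was found in 2 of the 50 groups of tested members that were checked, where chance flags about 1 in 20. Kcnk16 stood at 303 FPKM in miR-LacZ 3, against 169 to 181 FPKM in the other miR-LacZ libraries. Kcnmb2 stood at 11.95 FPKM in miR-431 7, against 5.88 to 6.77 FPKM in the other miR-431 libraries. The fall of Kcnk16 passed without miR-LacZ 3 (log2 fold change −0.88), and Kcnmb2 did not pass with or without miR-431 7 (0.46 and 0.25).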

How the results depend on the processing

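The count of 10 members that rose ranged from 9 to 11 and that of 4 that fell from 3 to 4 when each library was left out in turn. The share of all tested genes then ranged from 11.5% to 14.9% higher and from 9.49% to 13.4% lower. With no level filter 22 rose and 8 fell among 88 members tested, against 11% and 9.99% of all genes in that fit. At 5 FPKM in at least 4 libraries 4 rose and 3 fell among 13 tested, against 14% and 13.2% of all genes. Without miR-431 5 and miR-LacZ 1 together, 9 rose and 2 fell, against 13.1% and 11.2% of all genes. A pseudocount of 0.1, median-ratio scaling, no trend, a term for that pair and removal of the neighbouring median kept both counts within 1.5 times. With no filter, Kcnab3 and Kcnk3 no longer passed (limma adjusted p = 0.0504 and 0.0953), as did Kcnk3 and Kcnmb4 with the neighbouring median removed (0.0686 and 0.0816), where Kcnip4 passed (0.0345). The causes were not tested. Kcnma1, which did not pass, ranged from −0.12 to 0.01 when 1 library was left out, with 0.011 without miR-431 7 and 0.0044 without miR-LacZ 4. No scaling moved the median of all genes by more than 0.1. No paired analysis was possible because the groups share no replicate numbers.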

Other observations

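Some members lie side by side in the genome, and neighbours differed in level. On chromosome 6 (mm9), Kcna5 (126482568 to 126485573) was at 0.848 ± 0.177 FPKM in miR-431 cells and 0.0121 ± 0.0151 FPKM in miR-LacZ controls (SD, n = 4 each). Its relatives Kcna1 and Kcna6 on the same stretch reached at most 0.00279 and 0.00543 FPKM in any library. On chromosome 14, Kcnk16 (21081977 to 21088384) was the most abundant member, while its neighbour Kcnk5 (20959279 to 21001004) was at 0.0125 ± 0.00834 FPKM in miR-431 cells and 0.0186 ± 0.00415 FPKM in miR-LacZ controls. On chromosome 11, Kcnj2 (110927477 to 110938139) was at 0.320 ± 0.0417 FPKM in miR-431 cells and 0.161 ± 0.0179 FPKM in miR-LacZ controls, and its neighbour Kcnj16 (110829346 to 110889281) at 0.0120 ± 0.00512 and 0.00556 ± 0.00372 FPKM. On chromosome 1, the adjacent Kcnj9 and Kcnj10 were at 0.0847 ± 0.0455 and 0.226 ± 0.0551 FPKM in miR-431 cells, against 0.0270 ± 0.0243 and 0.0316 ± 0.0229 FPKM in miR-LacZ cells; the Kcnj9 libraries overlapped and the Kcnj10 libraries did not.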
